A study of Gallus gallus with 28 samples.

Results

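A set of 20 genes, out of the 11207 in the table, was chosen by measured values: each was higher under lipopolysaccharide (LPS) in chicks of both parental lineages and higher under heat in chicks of non-conditioned parents. Levels are in CPM, a gene's share of the library's total count scaled to 1e6, and differences are differences of group means of log2(CPM + 1). A member had a mean of at least 10 CPM over the 6 unchallenged libraries, a difference of at least 0.4 between the 6 LPS and the 6 unchallenged libraries, a lowest LPS value above the highest unchallenged value, and a difference of at least 0.4 between the 3 heated and the 3 unchallenged libraries of non-conditioned parents. The 3 heated libraries of conditioned parents were the only RNA libraries that the choice did not use. The chosen differences are therefore given as a description, without a test.

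The libraries measured RNA from whole lysates of chick (Gallus gallus) anterior preoptic hypothalamus at 10 days of age, in 6 groups of 3. The groups were LPS with conditioned parents, LPS with non-conditioned parents, heat with conditioned parents, heat with non-conditioned parents, t0 with conditioned parents and t0 with non-conditioned parents. LPS chicks were killed 6 h after an injection of LPS into the third ventricle of the brain, heated chicks 6 h into housing at 36 °C after 30 °C, and t0 chicks were not challenged. The labels of the methylation samples describe Cobb broiler eggs conditioned at 39.5 °C, 12 h daily from embryonic day 7 to day 16, and control eggs held at 37.8 °C throughout, and the challenged chicks themselves are labelled non-conditioned. The RNA labels speak of conditioned parents, the methylation labels of paternal conditioning. No group was handled or injected without the challenge, so each challenge cannot be told apart from handling, elapsed time or, for LPS, the injection. The labels do not say whether the 3 libraries of a group came from separate chicks, and p-values measure the spread between these libraries.

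LPS is a component of the outer membrane of Gram-negative bacteria. It is sensed through Toll-like receptor 4, and signalling through NF-κB then raises the transcription of cytokines, chemokines and their feedback inhibitors. Heat acts on cells through heat shock factors, which raise chaperone genes, and on the animal through thermosensitive neurons of the preoptic hypothalamus and the stress axis, whose glucocorticoids both raise genes of their own and restrain inflammatory ones. Genes that answer both kinds of challenge can belong to any of these programmes. Gene names are not paired with the identifiers in the table, and 0 identifiers matched the reference table, so the members are given by Ensembl identifier, no role can be stated for them, and the tissue label could not be checked against marker genes.

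Total counts per library ran from 828424 to 4589179. At t0 depth and lineage went together, with 828424 to 1422688 counts in the libraries of conditioned parents and 3379626 to 4589179 in those of non-conditioned parents. The lowest count of a member in any library was 6, and the median of the members' lowest counts was 31. Single-digit counts stood behind ENSGALG00000001434.6 in 2 libraries (6 and 9) and ENSGALG00000004859.5 in 2 libraries (7 and 8), which limits the precision of their levels there. On the scale of the total count, the heat difference of the non-conditioned lineage had a median of -0.13 over the 6037 genes with a mean of at least 10 CPM at t0, and -0.01 after scaling by TMM (the trimmed mean of M values, edgeR's normalization). The members' heat differences in that lineage, 0.40 to 2.23, would be 0.52 to 2.35 on the TMM scale.

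Among the numeric thresholds, the borders of the set were narrow in 1 place. ENSGALG00000042023.2 was just inside on the heat difference of non-conditioned parents (0.403) and ENSGALG00000008677.7 just outside (0.391). On the LPS difference ENSGALG00000006677.5 was inside at 0.64 and ENSGALG00000006512.5 outside at 0.33, and on the t0 level ENSGALG00000023933.2 was inside at 13.9 CPM and ENSGALG00000046192.1 outside at 9.42 CPM. The heat condition removed 68 genes that met every other condition, and these serve below as the other LPS-raised genes. The condition that the lowest LPS value exceed the highest t0 value removed 45 genes that met every other condition. The set depended on single heated and t0 libraries of non-conditioned parents. It held 14 genes, of which 13 were members, without heated library 2 of that lineage, and 19 genes, of which 15 were members, without t0 library 2. Without t0 library 3 of that lineage it held 31 genes, all 20 members among them. Leaving out any 1 LPS library, or any 1 library of conditioned parents, kept all 20 members.

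**Figure D1:**
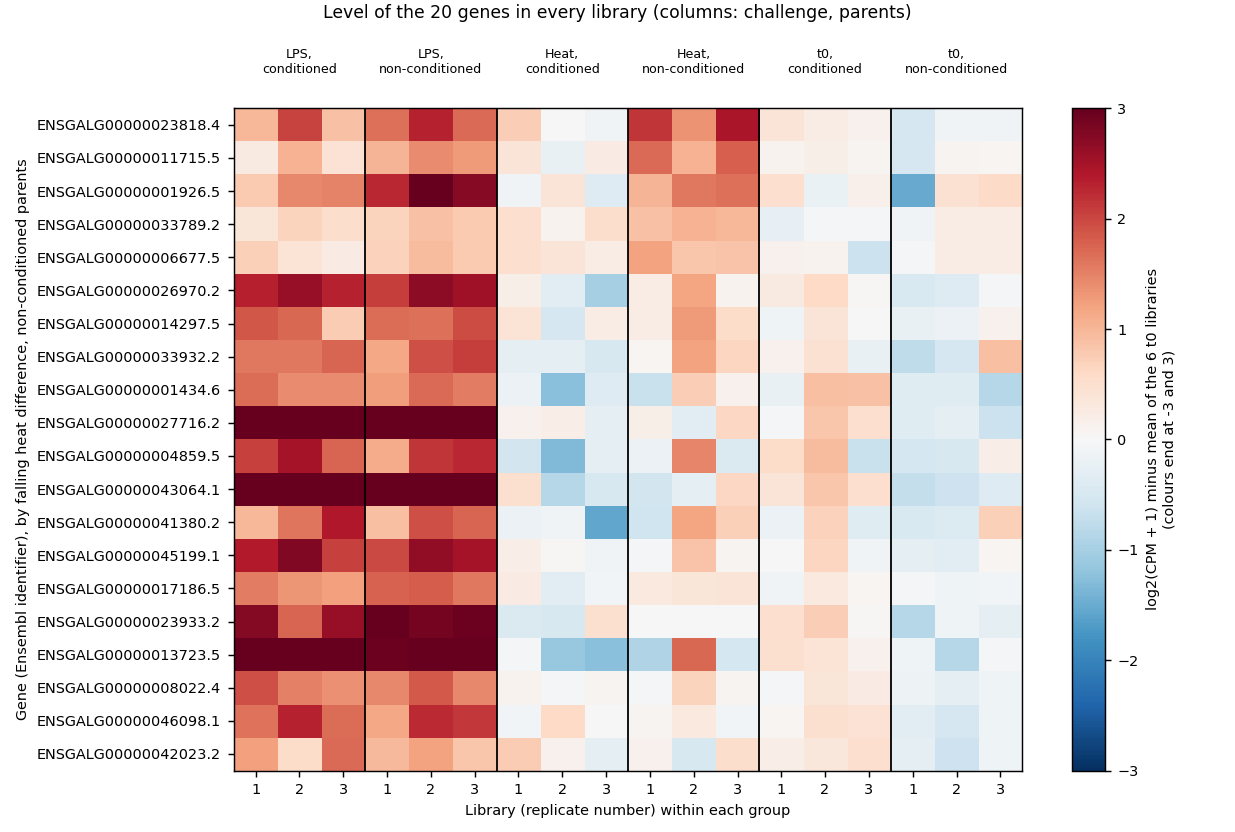
Level of the 20 genes (rows, by falling heat difference of non-conditioned parents) in the 18 RNA libraries (columns, by group), as log2(CPM + 1) minus the mean of the 6 t0 libraries, with colours ending at -3 and 3. All 6 LPS columns are above t0 in every row, as the choice required, while the heated columns are strongly coloured in the top rows for non-conditioned parents, in library 2 of that group for several lower rows, and mostly pale or blue for conditioned parents.

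The members differed widely in how far they rose under LPS. In bulk tissue more cells of a type and more RNA per cell cannot be told apart, and this holds for each level below. The LPS difference had a median of 1.65 over the members and ran from 0.64 to 5.87, beside 1.13 over the other LPS-raised genes (0.45 to 5.37) and -0.03 over all 6037 genes at the level floor. ENSGALG00000027716.2 had the largest LPS difference, with 5206, 2066 and 1557 CPM under LPS with conditioned parents, 2372, 2043 and 1666 CPM under LPS with non-conditioned parents, and 23.7 to 67.6 CPM in the 6 t0 libraries. ENSGALG00000043064.1 came next, with 4427, 2805 and 1989 CPM under LPS with conditioned parents, 2820, 2190 and 2521 CPM under LPS with non-conditioned parents, and 70.5 to 206 CPM at t0. In both genes LPS library 1 of conditioned parents was the highest of the 6 LPS libraries. This was so in 3 of the 20 members, beside 19.1% of the 6037 genes and 8 of the 68 other LPS-raised genes.

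At the other end, ENSGALG00000033789.2, the member with the highest level at t0 (mean 395 CPM), had 502, 619 and 566 CPM under LPS with conditioned parents, against 332, 375 and 377 CPM at t0 in that lineage. With non-conditioned parents it had 625, 719 and 681 CPM under LPS, against 367, 460 and 459 CPM at t0. ENSGALG00000006677.5 had 38.5, 30.9 and 27.7 CPM under LPS with conditioned parents, against 25.3, 24.8 and 14.5 CPM at t0, and 38.1, 45.6 and 40.6 CPM under LPS with non-conditioned parents, against 22.5, 27.2 and 26.9 CPM at t0. The LPS difference was smaller with conditioned than with non-conditioned parents in 19 of the 20 members (medians 1.47 and 2.07), beside 42 of the 68 other LPS-raised genes and 39.9% of the 6037 genes. Since the t0 libraries of non-conditioned parents also entered the heat condition, the choice favours low values in them.

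In the non-conditioned lineage, heat separated the members into those raised in every library and those raised in some. The 3 heated libraries all exceeded the 3 t0 libraries of the same lineage in 11 of the 20 members, beside 2.50% of the 6037 genes, a count that the choice itself favours. In 6 of them every heated library also lay above all 6 t0 libraries, beside 0.745% of the 6037 genes and 0 of the 68 other LPS-raised genes: ENSGALG00000023818.4, ENSGALG00000011715.5, ENSGALG00000001926.5, ENSGALG00000033789.2, ENSGALG00000006677.5 and ENSGALG00000017186.5, the last named after its values were seen. The choice favours this count of 6 as well, and the 68 genes were defined by a heat difference under 0.4. For the other 14 members the heat difference of non-conditioned parents was 0.40 to 0.81, and at least 1 heated library was no higher than the highest of the 6 t0 libraries. The name of a heat-raised gene thus held for every heated library of non-conditioned parents, against t0 of their own lineage, in 11 members, and for the group mean in the other 9.

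ENSGALG00000023818.4 had the largest heat difference. Its levels were 166, 97.1 and 91.9 CPM under heat with conditioned parents, against 129, 115 and 107 CPM at t0, and 438, 251 and 545 CPM under heat with non-conditioned parents, against 68.6, 90.9 and 91.4 CPM at t0. The heated libraries of conditioned parents overlapped their t0 libraries, while those of non-conditioned parents lay far above theirs. ENSGALG00000011715.5 followed the same order, with 264, 174 and 241 CPM under heat with conditioned parents, against 216, 230 and 214 CPM at t0, and 660, 414 and 700 CPM under heat with non-conditioned parents, against 143, 214 and 209 CPM at t0. ENSGALG00000001926.5 had 28.1, 40.3 and 23.2 CPM under heat with conditioned parents, against 43.6, 26.5 and 33.8 CPM at t0, and 62.9, 93.9 and 98.5 CPM under heat with non-conditioned parents, against 10.1, 42.5 and 45.9 CPM at t0. One t0 library of non-conditioned parents was thus far below the other two in this gene.

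**Figure D2:**
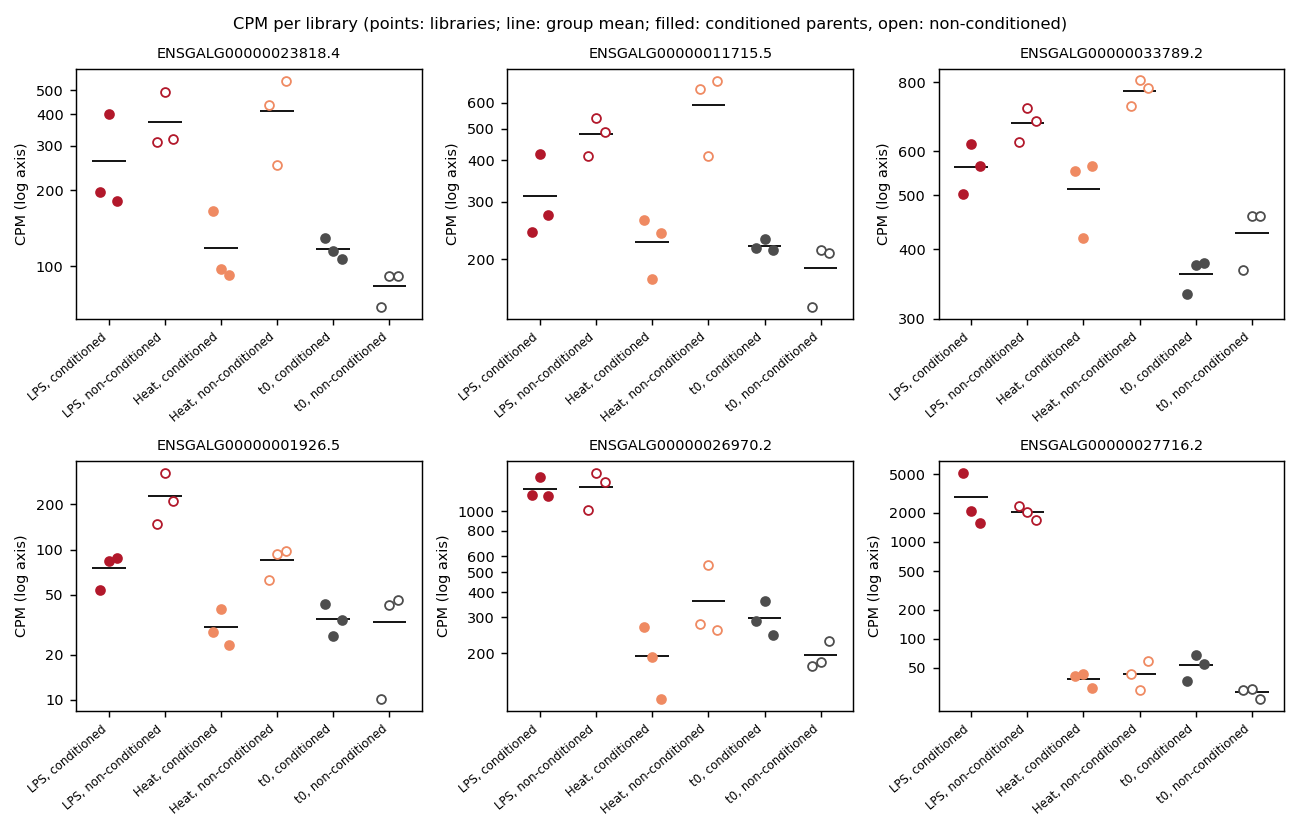
CPM on a log axis in each library of 6 members (points; filled for conditioned and open for non-conditioned parents) with the mean of each group of 3 libraries (line). In the 3 genes of the top row and in ENSGALG00000001926.5 the heated libraries of non-conditioned parents lie above all t0 libraries, in ENSGALG00000026970.2 heated library 2 of that lineage stands at 546 CPM above the other two, and in ENSGALG00000027716.2 only the LPS libraries, 1557 to 5206 CPM, are far from t0.

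In the non-conditioned lineage the heat difference was at least as large as the LPS difference in 4 members: 2.23 and 2.13 in ENSGALG00000023818.4, 1.63 and 1.36 in ENSGALG00000011715.5, 0.85 and 0.66 in ENSGALG00000033789.2, and 0.83 and 0.68 in ENSGALG00000006677.5. This was so in 41.4% of the 6037 genes and in 0 of the 68 other LPS-raised genes, which were defined by a heat difference under 0.4. Both differences use the same 3 t0 libraries. The members with the largest LPS differences had heat differences of 0.59 in ENSGALG00000027716.2, 0.50 in ENSGALG00000043064.1 and 0.43 in ENSGALG00000013723.5. The median heat difference over all members was 0.57. In 7 of the 20 members the highest heated library of non-conditioned parents reached the lowest LPS library of that lineage, beside 89.2% of the 6037 genes and 2 of the 68 other LPS-raised genes.

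Many of the smaller heat differences rested on heated library 2 of non-conditioned parents. This library, with 2725127 counts the deepest of the 3 (the others had 1145375 and 1461890), was the highest of the heated group in 12 of the 20 members, beside 33.2% of the 6037 genes and 27 of the 68 other LPS-raised genes. It lay above every t0 library in 14 members, beside 7.39% of the 6037 genes. Heated library 1 did so in 6 members, beside 9.38%, and heated library 3 in 9 members, beside 9.46%. ENSGALG00000013723.5 had 22.7, 145 and 29.4 CPM in heated libraries 1, 2 and 3 of non-conditioned parents, against 39.1, 23.5 and 42.3 CPM at t0, so that libraries 1 and 3 lay within or below the range of t0. ENSGALG00000004859.5 had 14, 45.9 and 11.6 CPM under heat with non-conditioned parents, against 10.8, 11.3 and 18.6 CPM at t0. ENSGALG00000026970.2 had 279, 546 and 259 CPM, against 174, 181 and 231 CPM, and here every heated library was above t0 of that lineage. At t0 with conditioned parents this gene had 287, 363 and 245 CPM.

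Without heated library 2 the heat difference of non-conditioned parents fell under 0.4 in 7 members, to between -0.38 and 0.32. Named by the rule, these included ENSGALG00000013723.5 at -0.38, ENSGALG00000004859.5 at -0.04, ENSGALG00000045199.1 at 0.20 and ENSGALG00000001434.6 at 0.25. ENSGALG00000026970.2 kept 0.47, and ENSGALG00000023818.4 and ENSGALG00000011715.5 had 2.55 and 1.87. Without heated library 3 instead, 4 members fell under 0.4, among them ENSGALG00000043064.1 at 0.15, ENSGALG00000027716.2 at 0.36 and ENSGALG00000042023.2 at 0.17. Without heated library 1, ENSGALG00000042023.2 did, at 0.37. A depth difference within the group goes with this library, and its part in the result was not tested. One library of another group also stood high: t0 library 2 of conditioned parents was the highest of the 6 t0 libraries in 12 members. This was so in 14.4% of the 6037 genes and in 21 of the 68 other LPS-raised genes.

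**Figure D3:**
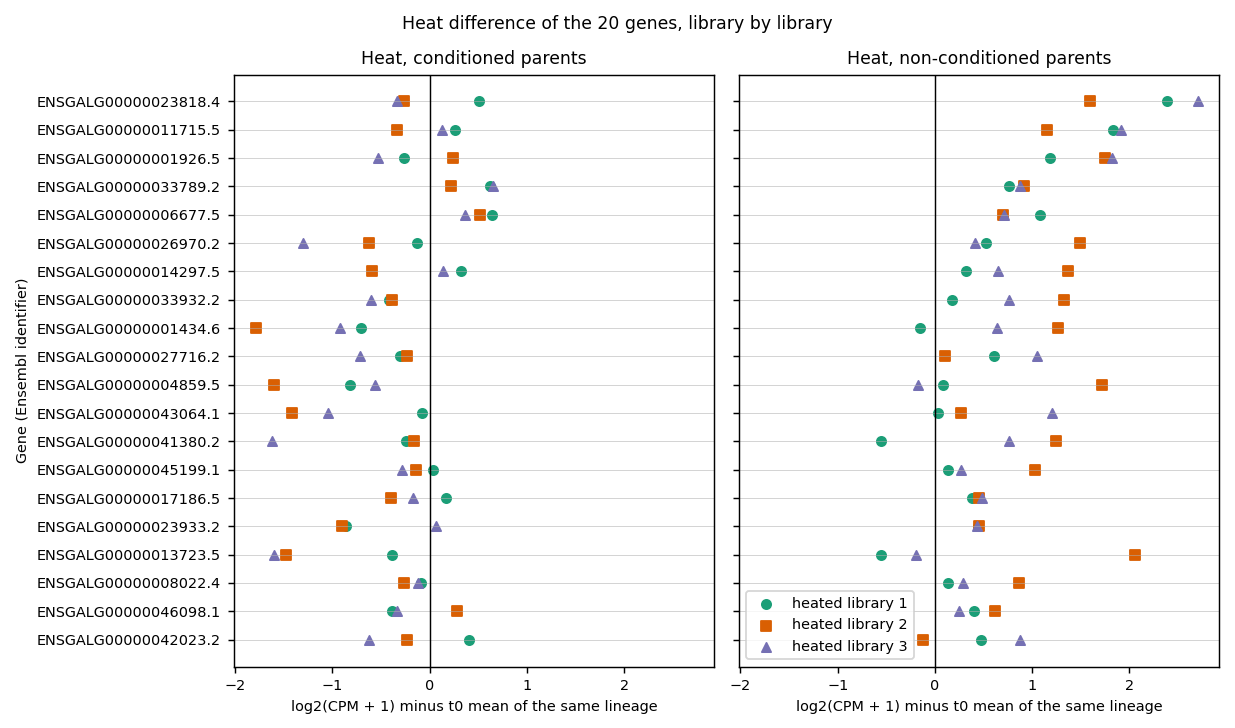
Heat difference of each of the 3 heated libraries (symbols) from the t0 mean of its own lineage, in log2(CPM + 1), for the 20 genes, with conditioned parents on the left and non-conditioned parents on the right. On the right, library 2 (squares) lies to the right of the other symbols in many lower rows, up to 2.06 in ENSGALG00000013723.5, while on the left most symbols are at or below 0.

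The heated libraries of conditioned parents ask whether the members rose under heat in the lineage that the choice did not use for heat. They did not pass the test there. EdgeR called 0 of the 20 members and 0 of the 7921 genes tested in heat against t0 with conditioned parents (0%), with 5 members and 1034 genes, or 13.1%, at an unadjusted p under 0.05. DESeq2 called 36 of 3814 genes, none of them among the 18 members it gave an adjusted p. Without t0 library 1 of conditioned parents, edgeR called 209 of 8214 genes and 1 of the 20 members. Of the 5, 4 were lower under heat, and their share is read against the 13.1% of all genes. The t0 libraries of conditioned parents had entered the choice through LPS, so this contrast is not wholly independent of it.

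The member that came nearest to a rise was ENSGALG00000033789.2, with 554, 419 and 565 CPM under heat with conditioned parents, against 332, 375 and 377 CPM at t0. All 3 heated libraries were above the 3 t0 libraries, and the fitted difference was 0.44 ± 0.13 on the log2 scale (SE, edgeR adjusted p = 0.263, 0.0726 to 1 over its alternatives). ENSGALG00000006677.5 had 33.1, 30.5 and 27.2 CPM under heat with conditioned parents, against 25.3, 24.8 and 14.5 CPM at t0, and an estimate of 0.40 ± 0.22 (edgeR adjusted p = 0.433). These were the only members whose heated libraries of conditioned parents all lay above t0, which is 2 of 20 beside 9.26% of the 6037 genes. In 0 members did all 3 of these libraries lie above all 6 t0 libraries, beside 0.497% of the 6037 genes, so this count does not set the members apart.

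The other 18 members had log2 fold changes under 0 in the edgeR fit, from -1.20 to -0.02, beside 48.1% of all genes tested. The median over all 20 was -0.26, beside 0.02 over all genes tested. On the scale of the total count the difference was under 0 in 17 members (ENSGALG00000011715.5 was at 0.02). This was so in 41 of the 68 other LPS-raised genes and in 43.7% of the 6037 genes. ENSGALG00000001434.6 had 11.6, 4.94 and 9.82 CPM under heat with conditioned parents, against 11.2, 25.7 and 25.3 CPM at t0, and an estimate of -1.20 ± 0.37 (edgeR adjusted p = 0.269). It was called without t0 library 1 of conditioned parents (-1.53, edgeR adjusted p = 0.0382), among 209 calls in 8214 genes. Its estimate was -0.33 without t0 libraries 2 and 3 of that group. ENSGALG00000043064.1 had 163, 64.2 and 83.4 CPM under heat, against 153, 206 and 165 CPM at t0 (-0.80 ± 0.31, edgeR adjusted p = 0.308). ENSGALG00000026970.2 had 270, 191 and 119 CPM, against 287, 363 and 245 CPM (-0.68 ± 0.28, edgeR adjusted p = 0.32).

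ENSGALG00000004859.5 and ENSGALG00000013723.5 had log2 fold changes of -1.20 ± 0.51 and -1.10 ± 0.56 (edgeR adjusted p = 0.334 and 0.404). In ENSGALG00000013723.5 the 3 heated libraries, at 41.6, 18.9 and 17.4 CPM, lay below the t0 libraries, at 60.4, 57.4 and 47.1 CPM. This was so in 2 of 20 members, the other being ENSGALG00000033932.2 (named after its values were seen), beside 6.06% of the 6037 genes. The estimates nearest 0 were those of ENSGALG00000011715.5 (-0.02 ± 0.22, edgeR adjusted p = 0.982), ENSGALG00000014297.5 (-0.03 ± 0.34, edgeR adjusted p = 0.985, named after its values were seen) and ENSGALG00000023818.4 (-0.04 ± 0.32, edgeR adjusted p = 0.973). In the other lineage ENSGALG00000023818.4 and ENSGALG00000011715.5 had the largest heat differences, 2.23 and 1.63, and ENSGALG00000014297.5 had 0.78.

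These estimates depended on the t0 libraries they were set against. Members were higher at t0 with conditioned than with non-conditioned parents: the difference was above 0 in 18 of 20, with a median of 0.44, beside 35.1% of the 6037 genes and a median of -0.13. After TMM scaling the median difference was 0.55 over the members and -0.02 over the 6037 genes. All t0 libraries of conditioned parents lay above all those of non-conditioned parents in 11 members. This was so in 6.79% of the 6037 genes and in 11 of the 68 other LPS-raised genes. In this contrast the choice of members favoured low values with non-conditioned parents. Heat with conditioned parents was also set against the t0 libraries of non-conditioned parents, an alternative chosen after the data were seen. The members' median log2 fold change was then 0.29, beside 0.008 over all genes tested, with 0 of the 20 members and 0 of 7921 genes called. The choice favoured low values in these t0 libraries, and so a value above 0 here. Within the conditioned lineage, leaving out t0 libraries 2 and 3 moved the members' median from -0.26 to -0.07. Leaving out 1 heated or t0 library of that lineage gave medians from -0.51 to -0.16. The mean of the heated libraries of conditioned parents lay within the range of the 6 t0 libraries in 17 of the 20 members, a share close to the 90.2% of the 6037 genes. Depth also went with lineage at t0, and the share of either in these differences cannot be told apart.

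Between the lineages under heat, which is a description since the heated libraries of non-conditioned parents chose the members, the difference of conditioned minus non-conditioned parents was under 0 in 18 of 20, with a median of -0.62, beside 38.7% of the 6037 genes and a median of 0.06. After TMM scaling the median was -0.69 over the members and -0.01 over the 6037 genes. In 7 members all heated libraries of conditioned parents lay below all those of non-conditioned parents, beside 2.67% of the 6037 genes. The other 68 LPS-raised genes had a median of -0.01 in this difference. Their heat differences had a median of -0.06 with conditioned and -0.03 with non-conditioned parents, whereas the members had medians of -0.17 with conditioned and 0.57 with non-conditioned parents, the second of which the choice fixed.

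Under LPS the comparison of conditioned with non-conditioned parents asks whether members differed between the lineages where both were challenged alike. The choice used the mean of the 6 LPS libraries and the lowest of them, and did not use the difference between the lineages. EdgeR called 0 of 20 members and 0 of 7921 genes (0%), with 3 members and 301 genes, or 3.80%, at an unadjusted p under 0.05, and DESeq2 called 0. All LPS libraries of conditioned parents lay below all those of non-conditioned parents in 4 members. This was so in 5.67% of the 6037 genes and in 7 of the 68 other LPS-raised genes. They lay above them in 0 members, beside 3.46% of the 6037 genes and 2 of the 68.

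The largest difference was that of ENSGALG00000001926.5, with 53.6, 84.0 and 87.6 CPM under LPS with conditioned parents, against 149, 325 and 209 CPM with non-conditioned parents. The groups did not overlap, and the log2 fold change was -1.56 ± 0.38, which did not pass after adjustment over all genes (edgeR unadjusted p = 0.00059, adjusted p = 0.999; adjusted p 0.318 to 1 over its alternatives). ENSGALG00000011715.5 had 242, 418 and 273 CPM under LPS with conditioned parents, against 413, 539 and 490 CPM with non-conditioned parents (-0.59 ± 0.21, edgeR adjusted p = 0.999). ENSGALG00000033789.2 had 502 to 619 CPM against 625 to 719 CPM, without overlap, and an estimate of -0.22 ± 0.12 (edgeR adjusted p = 0.999). ENSGALG00000023933.2, at 46.3 to 93.9 CPM against 102 to 117 CPM, and ENSGALG00000017186.5, at 112 to 139 CPM against 144 to 170 CPM, were the other members without overlap. The strongly raised ENSGALG00000027716.2 had an estimate in the other direction, 0.56 ± 0.31 (edgeR adjusted p = 0.999).

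The estimates under LPS, none of them called, were of both signs over the members. In the 6 genes whose heated libraries of non-conditioned parents all lay above every t0 library, the log2 fold change of conditioned over non-conditioned parents under LPS was under 0 in all 6, from -1.56 to -0.22, under each alternative run as well. In the other 14 members it was under 0 in 4, from -0.47 to 0.56, and over all genes tested in 49.8%. Among these 14, ENSGALG00000023933.2 was also under 0 under each alternative, from -0.63 to -0.24. On the scale of the total count, the difference was under 0 in 11 of the 20 members. This was so in 50 of the 68 other LPS-raised genes and in 58.3% of the 6037 genes. The division of the members was made after their values were seen, and its difference was not tested. All members were measured in the same libraries, so their signs are not separate observations. Within the LPS group of non-conditioned parents, library 1 was the lowest of the 3 in 13 of 20 members, beside 35.1% of the 6037 genes.

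**Figure D4:**
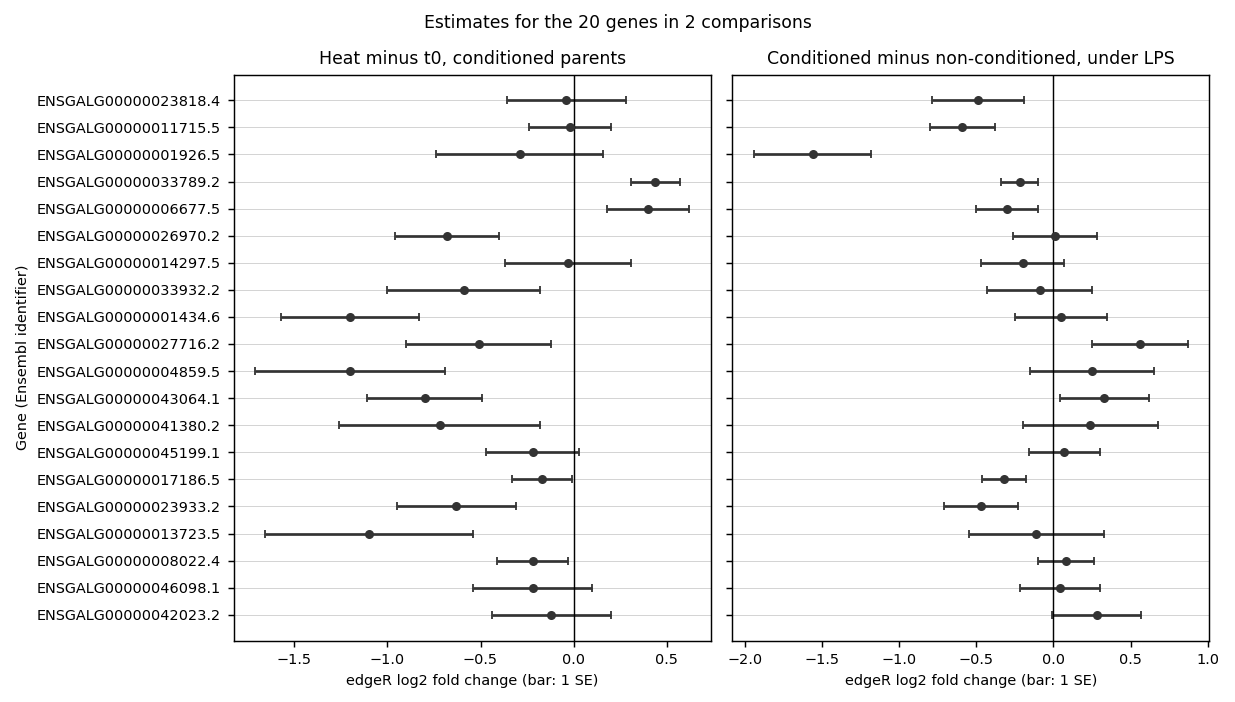
Log2 fold changes with 1 SE from the edgeR fit of all 18 RNA libraries for the 20 genes (rows): heat minus t0 with conditioned parents on the left, and conditioned minus non-conditioned parents under LPS on the right. None passed the adjusted threshold in either comparison. On the left only 2 genes lie to the right of 0, and on the right ENSGALG00000001926.5 stands apart at -1.56.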

How the data were processed

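Per the labels' protocols, RNA was isolated with TriReagent and sequenced as 3′ bulk MARS-seq libraries. The submitters' processing notes list cutadapt, STAR, HTSeq and DESeq2 and the galGal5 build. Versions, molecular identifier handling, strand use and any gene filter were not given in the sources, so reads shared by paralogs or overlapping genes could not be judged. Per the file headers, the deposited table holds raw counts per gene, beside a signal that the authors had normalized, which was not tested. The 10 methylation libraries are not analysed here.

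CPM and group differences were computed from the raw counts with a pseudocount of 1. Tests were edgeR 4.0.16 quasi-likelihood tests (R 4.3.3) in 1 group-means model of the 18 RNA libraries, after TMM scaling and edgeR's filter on low counts (7921 genes kept, 20 members among them), with Benjamini-Hochberg adjustment over all genes tested and a threshold of 0.05. Standard errors are the log2 fold change over the square root of F. The scripts were tested on simulated data. Alternatives were other scalings, no filter, DESeq2 1.42.0, voom with quality weights (limma 3.58.1), the compared groups alone, the replicate block and leaving out libraries. The members, lists and rules were chosen with earlier results of these data known. Members named are those with the largest sum of the LPS and heat differences, the highest t0 level, the extreme heat differences with conditioned parents, and those at the thresholds. The 18 gene lists of the design need gene symbols and were not applied.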

Additional observations from a re-analysis of the deposited data

Results flagged for a closer look

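In 5 members every heated library of conditioned parents lay below the t0 mean of its lineage while every heated library of non-conditioned parents lay above its own t0 mean, beside 3.03% of the 6037 genes at the level floor and 3 of the 68 other LPS-raised genes. The heat difference with conditioned parents was -0.68 in ENSGALG00000026970.2, -0.47 in ENSGALG00000033932.2, -0.41 in ENSGALG00000027716.2, -0.85 in ENSGALG00000043064.1 and -0.16 in ENSGALG00000008022.4 (named for this pattern after its values were seen). The choice of members fixed the direction of the group mean with non-conditioned parents. It favoured, but did not fix, that of each library, and the difference between the lineages was not tested.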

How the results depend on the processing

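With conditioned parents, heat against t0 gave 0 calls over all genes, but 36 of 3814 with DESeq2 and 4 of 7921 with voom. Leaving out 1 library gave 0 to 209 calls over all genes and 0 to 1 among the members. The highest of each came without t0 library 1 of conditioned parents, where 8214 genes were tested. The members' median log2 fold change was 0.29 against the t0 libraries of non-conditioned parents, in which the choice favoured low values. It was -0.07 without t0 libraries 2 and 3 of conditioned parents, against -0.26 with all of them. When 1 library was left out it ran from -0.51 to -0.16, and with voom it was -0.40. Under LPS, the members' median between lineages ran from -0.24 to 0.14 when 1 library was left out. The number of members ran from 14 to 31 when 1 library was left out, and was 27 with TMM scaling. The number with every heated library of conditioned parents above every t0 library was 1 with TMM scaling and 0 to 2 when 1 library was left out. Of 300 member values for heat and 260 for LPS under alternatives, 34 and 24 changed sign or rounded to 0.00, none of them called. The heat values include those against the t0 libraries of non-conditioned parents, which is a different contrast. The replicate block gave 0 calls in both comparisons. Deviations from the group mean correlated at 0.01 to 0.22 for heat and -0.04 to 0.12 for LPS between libraries with the same title replicate number. Between other libraries of the compared groups they correlated at -0.15 to 0.07 and -0.12 to 0.06. The numbers were not taken as pairs. The column headers number several libraries differently, so neither these values nor the block can show whether libraries were paired. Depth limits the t0 libraries of conditioned parents most, and a missed threshold does not show equal levels.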
